A study of Rattus norvegicus with 9 samples.

Results

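A set of 6 genes that mark the subplate and its adult remnant, cortical layer 6b, was followed across all arrays of the series: Cplx3, Ccn2, Nr4a2, Nxph4, Lpar1 and Moxd1. A probe set, the group of short probes that reports 1 transcript, was taken where the platform annotation gave exactly 1 symbol and that symbol was one of the 6. This gave 6 of the 14217 genes with a probe set of their own, on 9 of the 31099 probe sets with deposited values, and 8 of the 9, covering all 6 genes, passed the filter on dim probe sets. The set was chosen by the Cplx3 and Ccn2 values of these same arrays, which were low at 750 ppm and not at 2500 ppm. Their values are therefore given as a description with no test, and the question was whether the other 4 genes follow them.

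The study profiled cortex of Hsd:Sprague Dawley SD rat pups on postnatal day 4 after exposure of the breeding animals to 4-methylimidazole (4-MeI), a small heterocycle that forms when foods brown. Control animals received 0 ppm and the exposed animals 750 ppm or 2500 ppm of 4-MeI in the diet, with 3 Affymetrix rat expression arrays per group. The 3 groups share strain, age, tissue and the continuous breeding design, and 1 pup was taken per F2b litter. The labels give no sex, pooling or array batch, and they do not say which dams had seizures, which the series title names. Deposited values are log2 intensities from robust multi-array averaging (RMA), on which a step of 1 is a doubling, and all differences are on this scale, with the first-named group minus the second.

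The arrays had medians between 7.67 and 7.71, and each correlated at 0.988 or above with the others of its group. Control replicate 3 and 750 ppm replicate 3 stood apart on the first principal component, with scores of -25.2 against -8.64 and -9.47 in the other controls, and of 14.98 against -5.97 and -11.3 in the other 750 ppm arrays. Differences of the 6 genes and counts of calls that rest on control replicate 3 or 750 ppm replicate 3 are given with and without it. List means and medians are given with all arrays only. Cortical neuron genes were bright in all groups. Their mean over 5 genes (Neurod2, Neurod6, Slc17a7, Emx1 and Nrgn) lay between 10.50 and 10.64 in controls, 10.40 and 10.60 at 750 ppm, and 10.74 and 10.79 at 2500 ppm. Genes of neighbouring tissue were also measured on every array. The mean of 14 meningeal genes was 8.43 to 9.51 in controls, 10.05 to 10.32 at 750 ppm and 9.71 to 10.10 at 2500 ppm, and that of 11 striatal genes was 9.36 to 9.76, 8.07 to 9.76 and 7.99 to 8.94. RMA values have no 0 and no detection call, so no marker can be said to be absent.

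The subplate is a transient layer of early-born neurons under the cortical plate. Its neurons receive thalamic axons before these enter the cortex and form some of the first working cortical circuits. In rodents many of them die after birth, and the survivors lie in layer 6b above the white matter. Several of the genes that mark them are also used by other cells: Ccn2 by fibroblasts and vessel walls, Lpar1 by meninges and the oligodendrocyte lineage, and Nr4a2 by the claustrum and by recently active neurons. In a bulk sample, fewer cells of a type and less RNA per cell cannot be told apart.

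Cplx3 encodes a complexin, which binds the assembled SNARE complex and controls release from synaptic vesicles. On its brighter probe set, 1384779, Cplx3 was at 8.32, 8.08 and 8.27 in the control arrays, at 7.48, 7.21 and 7.28 at 750 ppm, and at 8.37, 8.32 and 8.36 at 2500 ppm. All 3 arrays at 750 ppm lay below all 6 others, and the nearest pair of 750 ppm and control arrays was 0.60 apart. Such an order against control, with no overlap, was found in 6.58% of all probe sets past the filter; for Cplx3 and Ccn2 it chose the genes and nothing is read from it. The mean at 750 ppm was 7.32 ± 0.14 against 8.22 ± 0.13 in controls (SD, n = 3 each), a difference of -0.90 or a 1.86-fold lower intensity. At 2500 ppm the mean was 8.35 ± 0.024, which was 1.03 above 750 ppm and 0.13 above control, with the lowest 2500 ppm array only 0.0019 above the highest control.

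The second Cplx3 probe set, 1391400, repeated this order at the dim end of the scale. Its values were 5.03, 4.81 and 4.88 in controls, 4.60, 4.58 and 4.64 at 750 ppm, and 4.81, 4.95 and 4.88 at 2500 ppm. Again all 3 arrays at 750 ppm were the lowest, here by 0.17, and the controls overlapped with 2500 ppm. Its mean of 4.80 lies under the filter level of 6.35, where RMA compresses differences, so its difference of -0.30 at 750 ppm against control is not a second estimate of the size. Both probe sets report the same gene in the same 9 samples. Leaving out any 1 array moved the difference of the brighter probe set only between -0.97 and -0.84.

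Ccn2 encodes a secreted matrix-associated protein, also called connective tissue growth factor. Its single probe set, 1367631, read 10.04, 10.00 and 9.83 in controls, 9.68, 9.82 and 9.51 at 750 ppm, and 10.23, 10.30 and 10.19 at 2500 ppm. The 750 ppm arrays were again the lowest, but the highest of them was only 0.015 below the lowest control. The mean at 750 ppm was 9.67 ± 0.15 against 9.96 ± 0.11 in controls (SD, n = 3 each), a difference of -0.29. The mean at 2500 ppm was 10.24 ± 0.055, 0.28 above control and 0.57 above 750 ppm, and no 2500 ppm array overlapped with a control, an order found in 9.87% of all probe sets. Probe sets with 750 ppm below and 2500 ppm above control on all arrays made up 0.221% of those past the filter, which is given beside Ccn2 and Cplx3 as background only. Ccn2 differed from Cplx3 in 2 measured ways: its groups at 750 ppm and control lay nearly in contact, and its values at 2500 ppm stood above control by a wider gap, 0.15. Leaving out any 1 array gave between -0.36 and -0.21 at 750 ppm against control.

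Meningeal and vascular cells also make Ccn2, and most of their markers, though not all, were higher where Ccn2 was lowest. In the comparison of 750 ppm with control, all 14 meningeal genes past the filter were higher, with a median of 1.28, and so were all 10 endothelial genes, with a median of 0.44. Of 9 mural cell genes, from the vessel wall, 6 were higher and 3 lower (Acta2, Abcc9 and Cspg4), with a median of 0.17. Over all 11606 genes tested, the median was 0.018. At 2500 ppm, where Ccn2 was above control, all 14 meningeal genes were higher too, with a median of 0.90. Among these genes Omd, with a control mean of 6.14, passed the filter only through the exposed groups. The part of these tissues in the Ccn2 values was not tested.

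The 250 bases before the annotated start of Cplx3 and Ccn2 are shown because these 2 genes gave the lowest values at 750 ppm together. They are RefSeq sequences of build GRCr8, both on the minus strand and written 5′ to 3′, at chr8:66906201-66906450 for Cplx3 and chr1:22624615-22624864 for Ccn2. Capitals mark every match, on either strand, to the motifs searched: GGAATG (TEAD), AAAGGTCA (the NBRE bound by Nr4a2), TGACGTCA (CRE), TGACTCA (AP-1), AGGTGTGA (T-box), CACGTG (E-box) and TATAAA (the core promoter box).
Cplx3: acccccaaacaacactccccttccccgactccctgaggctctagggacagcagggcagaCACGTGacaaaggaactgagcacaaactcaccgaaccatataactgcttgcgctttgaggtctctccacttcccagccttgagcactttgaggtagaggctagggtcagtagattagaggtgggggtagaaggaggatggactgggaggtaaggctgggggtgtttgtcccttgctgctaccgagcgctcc
Ccn2: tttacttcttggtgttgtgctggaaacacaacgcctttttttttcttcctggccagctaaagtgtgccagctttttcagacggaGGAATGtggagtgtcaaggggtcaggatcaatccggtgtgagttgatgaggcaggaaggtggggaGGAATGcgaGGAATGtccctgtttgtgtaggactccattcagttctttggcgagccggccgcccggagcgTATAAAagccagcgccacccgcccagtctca
The Ccn2 sequence holds GGAATG 3 times, with first bases at -166, -101 and -92 relative to the start, and TATAAA once, with its first base at -31. The Cplx3 sequence holds 1 CACGTG, with its first base at -191. Of 33469 promoters of the same length, 12.1% hold GGAATG at least once and 0.0807% at least 3 times, 12.9% hold TATAAA and 5.59% hold CACGTG. No motif searched was in both sequences, and AAAGGTCA, present in 1.24% of promoters, was in neither. These are letter matches and not shown to be bound.

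**Figure D1:**
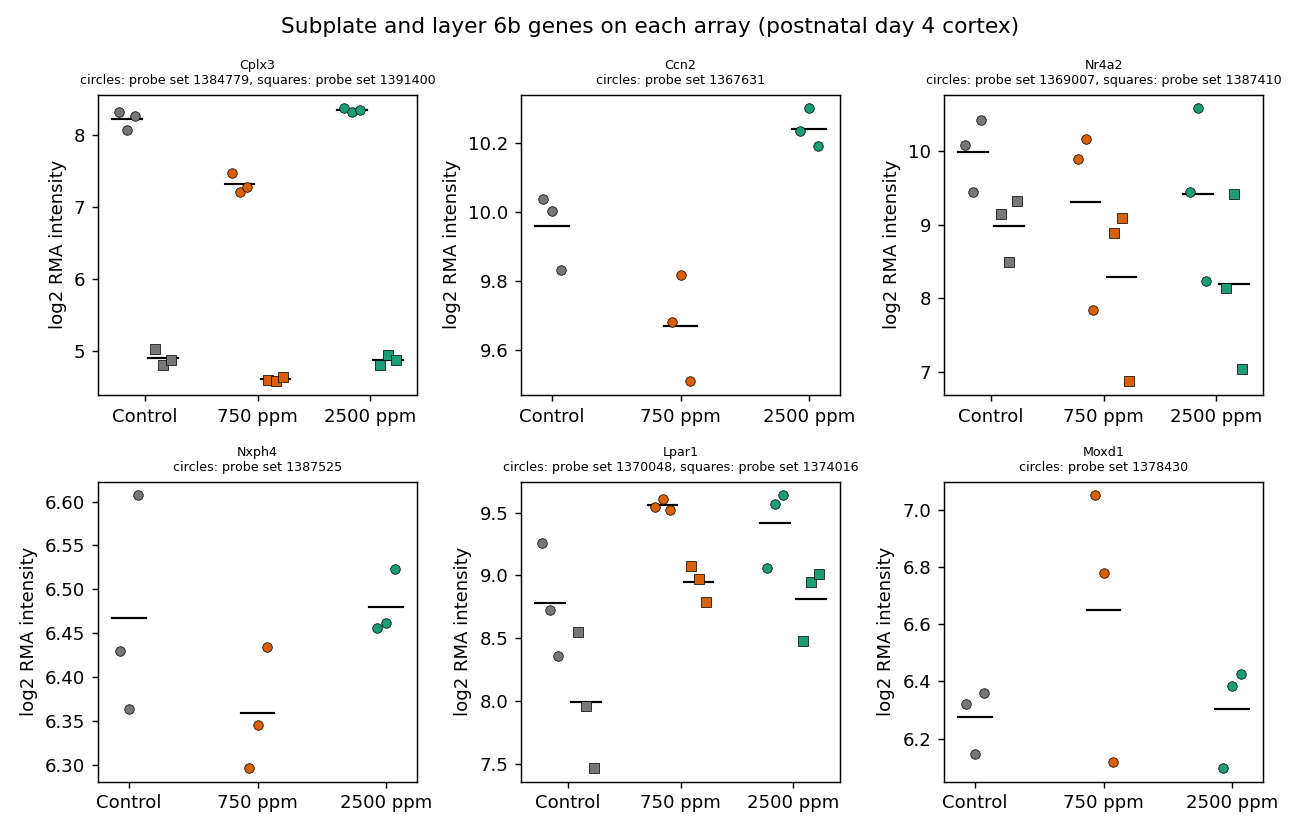
Log2 RMA intensity (vertical axis) of each probe set of the 6 genes on each array, by group (horizontal axis); points are arrays, short lines are group means, and squares are a gene's second probe set. Cplx3 and Ccn2 are lowest in all 3 arrays at 750 ppm, while Lpar1 is highest there and in 2500 ppm replicates 2 and 3, Nr4a2 drops in 750 ppm replicate 3 and 2500 ppm replicate 3, and Moxd1 is high in 2 of the 3 arrays at 750 ppm.

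None of the other 4 genes followed Cplx3 and Ccn2 on all arrays. The comparisons of each dose with control share the same 3 control arrays. Read per array, the pattern is that all 3 arrays at 750 ppm lie below all 3 control and all 3 2500 ppm arrays. It was found in 0 of the 6 probe sets of Nr4a2, Nxph4, Lpar1 and Moxd1, against 1.76% of all 21729 probe sets past the filter. At so low a share, 0 of 6 cannot be told apart from probe sets in general. A gap of at least 0.1, which Cplx3 had and Ccn2 did not, was found in 0.244% of them. In the limma model fitted to all probe sets, 0 of the 6 probe sets passed an adjusted p of 0.05 at 750 ppm against control (0.0092% of all), at 2500 ppm against control (0.686%), or at 2500 ppm against 750 ppm (0.322%). At an unadjusted p under 0.05 both Lpar1 probe sets were counted in the 2 comparisons with control, where 10.1% of all probe sets at 750 ppm and 16% at 2500 ppm were. In the comparison of 2500 ppm with 750 ppm it was 0 of the 6, against 12.6%.

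Nxph4 came nearest to the pattern, with a small difference. It encodes a neurexophilin, a secreted glycoprotein of the family that binds neurexins. Its values on probe set 1387525 were 6.43, 6.36 and 6.61 in controls, 6.30, 6.35 and 6.43 at 750 ppm, and 6.46, 6.46 and 6.52 at 2500 ppm. The 750 ppm arrays lay below all 2500 ppm arrays but overlapped with the controls. The difference at 750 ppm against control was -0.11 (95% interval -0.27 to 0.059, adjusted p = 0.621 in limma), and at 2500 ppm against 750 ppm it was 0.12 (-0.045 to 0.29, adjusted p = 0.538). Arrays of these 2 exposed groups that do not overlap, with 2500 ppm above, occurred in 7.88% of all probe sets. Without control replicate 3, its highest array, the difference at 750 ppm against control was -0.038 and the per-array pattern was not found. Without 750 ppm replicate 3 the difference was -0.15 and the pattern was found. Its mean of 6.44 is just above the filter level of 6.35, so its differences may be compressed.

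Lpar1 ran opposite to Cplx3 at 750 ppm. It encodes a receptor for lysophosphatidic acid that couples to G proteins. On probe set 1370048 its values were 9.26, 8.73 and 8.36 in controls, 9.55, 9.61 and 9.52 at 750 ppm, and 9.06, 9.57 and 9.64 at 2500 ppm. On probe set 1374016 they were 8.55, 7.96 and 7.47 in controls, 9.07, 8.98 and 8.79 at 750 ppm, and 8.48, 8.95 and 9.01 at 2500 ppm. Both probe sets put all 750 ppm arrays above all controls, an order found in 7.61% of probe sets, and 2500 ppm replicate 1 within the range of the controls. The differences at 750 ppm against control were 0.78 (95% interval 0.29 to 1.27, adjusted p = 0.260) and 0.95 (SE 0.24, adjusted p = 0.232), and at 2500 ppm against control 0.64 (adjusted p = 0.196) and 0.82 (adjusted p = 0.152), all in limma with n = 3 per group. Neither dose passed the threshold.

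The spread of Lpar1 among the controls ran in the same order as the meningeal list and several other lists. The mean of the 14 meningeal genes was 9.51, 8.98 and 8.43 in control replicates 1, 2 and 3, while Lpar1 was highest in control replicate 1 and lowest in control replicate 3. The order was not particular to meninges. In control replicates 1, 2 and 3 the oligodendrocyte lineage mean was 9.61, 9.51 and 9.18, and the endothelial mean 8.85, 8.74 and 8.40. The mural cell mean was 8.20, 8.18 and 7.97, and that of microglia and macrophage genes 7.90, 7.82 and 7.63. In the exposed pups the lowest meningeal mean, 9.71, and the lowest endothelial mean, 8.93, were in 2500 ppm replicate 1, which also had the lowest Lpar1 among them. The other 3 lists went otherwise. In 2500 ppm replicate 1 the oligodendrocyte lineage mean was 9.69, the highest of all 9 arrays. The lowest mural cell mean of the exposed pups, 8.27, and their lowest microglia and macrophage mean, 7.96, were in 750 ppm replicate 3. The mean of 8 oligodendrocyte lineage genes was 9.18 to 9.61 in controls, 9.39 to 9.48 at 750 ppm and 9.50 to 9.69 at 2500 ppm. Of the 8, 6 were lower at 750 ppm than in controls, with a median of -0.13, while Cldn11, a tight junction gene, differed by 1.18 (adjusted p = 0.306). The part of meningeal tissue and of the oligodendrocyte lineage in the Lpar1 values was not tested. Without control replicate 3, the Lpar1 difference at 750 ppm against control was 0.57 on probe set 1370048 and 0.69 on probe set 1374016. At 2500 ppm against control it was then 0.43 and 0.56.

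**Figure D2:**
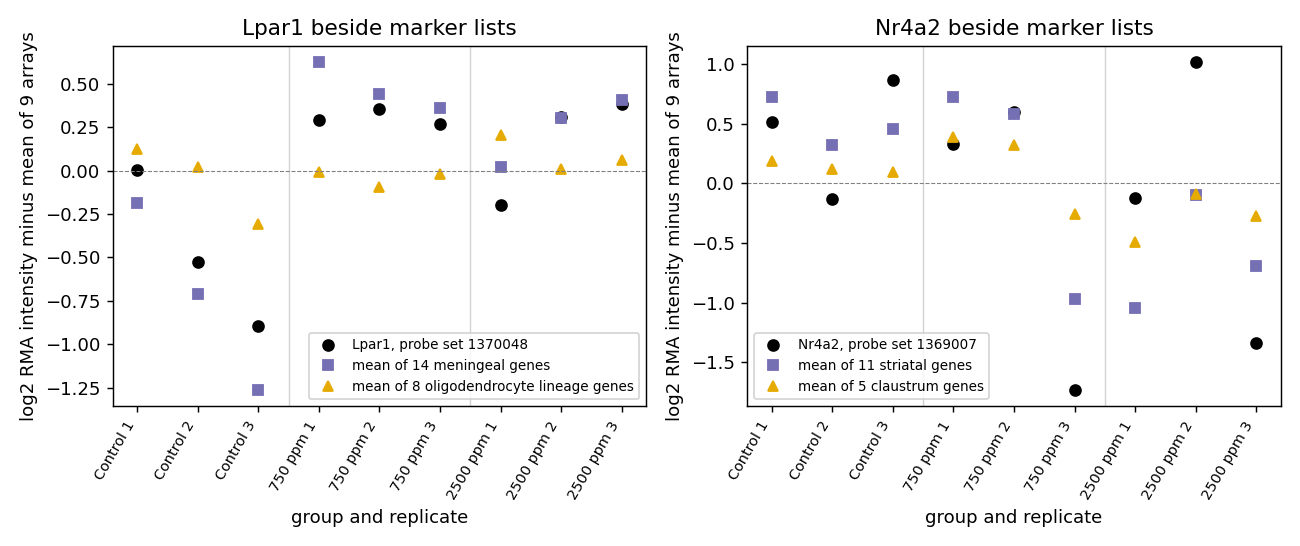
Log2 RMA intensity of Lpar1 (left) and Nr4a2 (right) on each array, with the mean of marker lists beside them; the vertical axis gives each value minus its mean over all 9 arrays, and the horizontal axis gives group and replicate. Lpar1, the meningeal mean and the oligodendrocyte lineage mean are all lowest in control replicate 3. In 2500 ppm replicate 1, where Lpar1 and the meningeal mean are the lowest of the exposed arrays, the oligodendrocyte lineage mean is the highest of all 9 arrays. Nr4a2, the striatal mean and the claustrum mean are all low in 750 ppm replicate 3 and 2500 ppm replicate 3. In 750 ppm replicate 3 the claustrum mean is low through Oprk1 and Synpr, and the other claustrum genes do not drop.

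Nr4a2 varied more between pups of one group than between groups. It encodes the orphan nuclear receptor Nurr1, a transcription factor of subplate, claustral and midbrain dopamine neurons that is also induced by activity. On probe set 1369007 its values were 10.09, 9.44 and 10.43 in controls, 9.90, 10.17 and 7.84 at 750 ppm, and 9.45, 10.58 and 8.23 at 2500 ppm. On probe set 1387410 they were 9.14, 8.49 and 9.32 in controls, 8.88, 9.10 and 6.87 at 750 ppm, and 8.14, 9.42 and 7.03 at 2500 ppm. Both probe sets placed the same 2 arrays lowest, 750 ppm replicate 3 and 2500 ppm replicate 3, and 2500 ppm replicate 2 highest. All groups overlapped.

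The means of Nr4a2 therefore differed by less than the spread between pups. At 750 ppm against control the difference was -0.68 (95% interval -2.23 to 0.87, adjusted p = 0.745) on probe set 1369007 and -0.70 (-2.22 to 0.82, adjusted p = 0.731) on probe set 1387410, by limma. Without 750 ppm replicate 3 these differences were 0.050 and 0.0056. At 2500 ppm against control the differences were -0.56 (adjusted p = 0.719) and -0.79 (adjusted p = 0.600), and without 2500 ppm replicate 3 they were 0.030 and -0.20.

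Marker lists of neighbouring structures were also low on the 2 arrays with little Nr4a2. In 750 ppm replicate 3 the mean of 11 striatal genes was 8.07, against 9.76 and 9.62 in the other 750 ppm arrays, and in 2500 ppm replicates 1, 2 and 3 it was 7.99, 8.94 and 8.34. The mean of 5 claustrum genes (Gnb4, Oprk1, Lxn, Synpr and Gng2) was 11.36, 11.30 and 10.71 at 750 ppm and 10.48, 10.88 and 10.70 at 2500 ppm, with 11.06 to 11.16 in controls. In 750 ppm replicate 3 it was low through Oprk1 (6.22 against 8.73 and 8.46) and Synpr (11.13 against 12.21 and 12.26). Gnb4 (12.15) and Gng2 (13.49) were the highest of their group there, and Lxn was at 10.55 against 10.65 and 10.55. The lowest striatal and claustrum means of all arrays were in 2500 ppm replicate 1, where Nr4a2 was at 9.45 on probe set 1369007, within the range of the controls, and at 8.14 on probe set 1387410, below them. The mean of 8 immediate early genes was 8.06 in 750 ppm replicate 3, against 8.22 to 8.52 in controls. It was 8.10, 8.22 and 8.09 in 2500 ppm replicates 1, 2 and 3, so it was as low in replicate 1 as in replicate 3. The part of these in the Nr4a2 values was not tested.

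Moxd1 was high in 2 pups at 750 ppm. It encodes a monooxygenase related to dopamine beta-hydroxylase. On probe set 1378430 its values were 6.32, 6.15 and 6.36 in controls, 7.05, 6.78 and 6.12 at 750 ppm, and 6.10, 6.39 and 6.43 at 2500 ppm. Replicates 1 and 2 at 750 ppm lay above all other arrays, and replicate 3 was among the lowest. The difference at 750 ppm against control was 0.37 (95% interval -0.090 to 0.83, adjusted p = 0.562) and at 2500 ppm against 750 ppm -0.35 (-0.81 to 0.12, adjusted p = 0.526) in limma with n = 3 per group. Moxd1 passed the filter only through the 750 ppm group: its mean was 6.28 in controls, 6.65 at 750 ppm and 6.30 at 2500 ppm, against a filter level of 6.35. At 750 ppm against control, the difference was 0.17 without 750 ppm replicate 1 and 0.64 without 750 ppm replicate 3 (adjusted p = 0.0872). Without 750 ppm replicate 3 the comparison of 2500 ppm with 750 ppm gave -0.61 with an adjusted p of 0.0375 in limma. This was the only call among the 4 genes under any single omission. With that array left out, 731 of all 21729 probe sets were called in this comparison, against 70 with all arrays. The Moxd1 call rests on the 2 high arrays that also carried Moxd1 past the filter. On GRCr8, Moxd1 (chromosome 1, 22894543 to 22984599) lies 270 kb from Ccn2 (chromosome 1, 22621498 to 22624614), and the 2 genes differed in which arrays were high or low.

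**Figure D3:**
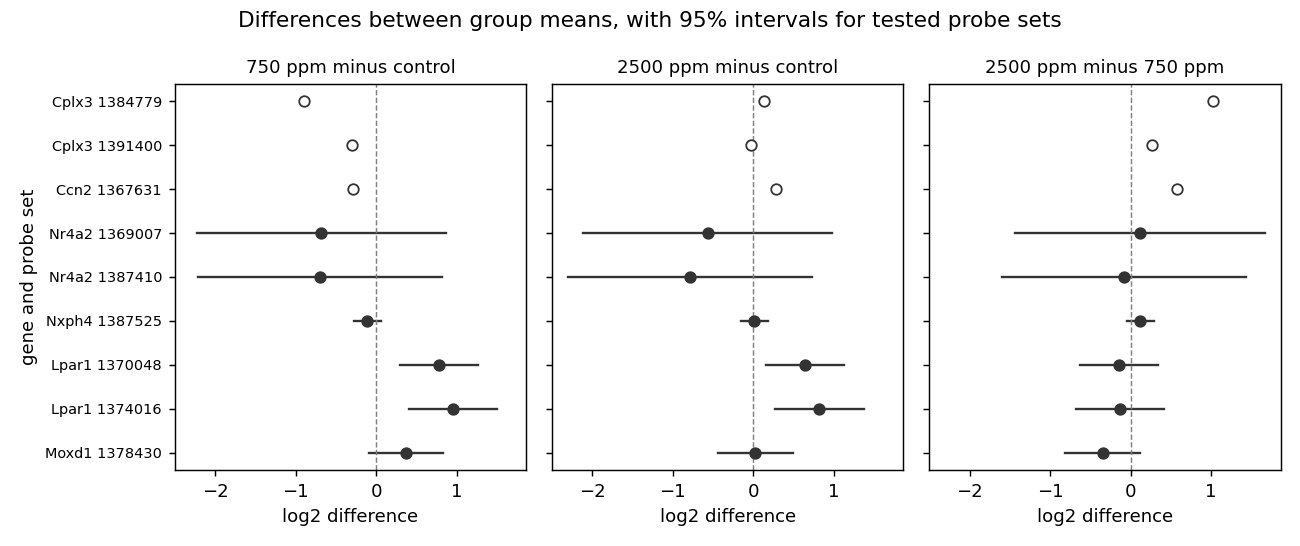
Difference in log2 RMA intensity (horizontal axis) for each probe set of the 6 genes (rows) in the 3 comparisons (panels); filled points carry 95% intervals from the limma model, and open points are Cplx3 and Ccn2, which were not tested. The Nr4a2 intervals span about 3 log2 units, and the Lpar1 intervals lie above 0 in both comparisons with control without passing the adjusted threshold.

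A further 18 genes known from the subplate or layer 6b were listed for their known expression there. Of these, 16 had a probe set with their symbol and 13 passed the filter. None of the 13 had the per-array pattern of Cplx3, beside 171 of all 11606 genes tested. At so low a share, 0 of 13 cannot be told apart from genes in general. At 750 ppm against control 6 were higher and 7 lower, with a median of -0.055 beside 0.018 over all genes tested. In all 3 comparisons 0 of the 13 passed the adjusted threshold by limma. At 750 ppm against control, 2500 ppm against control and 2500 ppm against 750 ppm, 2, 3 and 4 of them had an unadjusted p under 0.05. The shares over all probe sets, which count probe sets and not genes, were 10.1%, 16% and 12.6%.

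Single members of that list differed in opposite directions. Inpp4b, a phosphoinositide phosphatase gene, was at 7.27, 7.46 and 7.27 in controls, 7.82, 7.63 and 7.61 at 750 ppm, and 6.74, 6.70 and 7.30 at 2500 ppm. Its 750 ppm arrays were the highest of all, the reverse of Cplx3 and an order found in 1.88% of all probe sets, and the difference at 2500 ppm against 750 ppm was -0.77 (SE 0.15, adjusted p = 0.0779, limma). Svil, which encodes the actin-binding protein supervillin, was 0.74 higher at 750 ppm than in controls (SE 0.19, adjusted p = 0.240). Its values of 9.80, 9.73 and 9.18 at 750 ppm were all above the controls, at 9.10, 8.83 and 8.55, as were those of 7.61% of all probe sets. Abca8a, a lipid transporter gene, was at 8.87, 8.31 and 7.95 at 2500 ppm, above all controls at 7.64, 7.66 and 7.19, with a difference of 0.88 (adjusted p = 0.0979). That order was found in 9.87% of all probe sets.

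Tmem163 and Chrna5 were the remaining genes with the smallest p of the list. Tmem163, a zinc transporter gene of vesicles, was at 10.55, 10.29 and 10.42 at 2500 ppm against 10.05, 10.10 and 10.32 at 750 ppm, with overlap. That comparison had its smallest p, with a difference of 0.27 (adjusted p = 0.304), and at 750 ppm against control the difference was -0.15 (adjusted p = 0.593). Chrna5, a nicotinic receptor subunit gene of deep cortical layers, had its lowest group mean at 2500 ppm, with overlap, at 7.71, 7.45 and 7.99 against 7.96, 8.88 and 8.40 in controls (difference -0.70, adjusted p = 0.183).

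**Figure D4:**
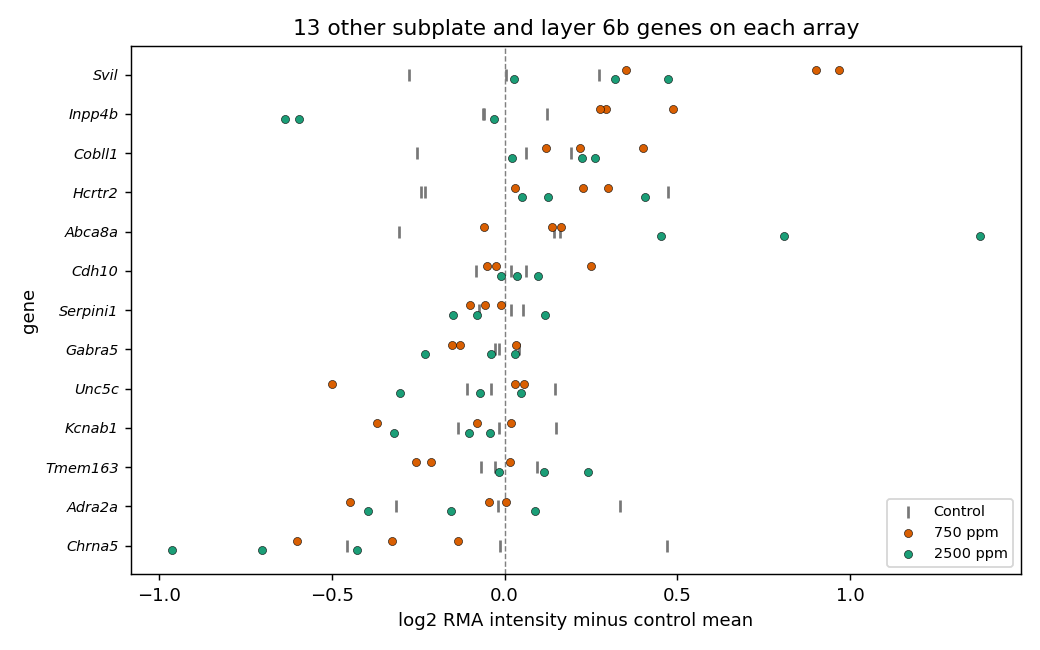
Log2 RMA intensity minus the control mean (horizontal axis) of 13 other subplate and layer 6b genes (rows, ordered by the difference at 750 ppm against control) on each array; orange and green points are the 750 ppm and 2500 ppm arrays and grey ticks the controls. Inpp4b and Svil have all 750 ppm arrays above the controls, Abca8a has all 2500 ppm arrays above them, and no gene has its 3 lowest values at 750 ppm.

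Relatives and partners of Cplx3 and Ccn2 did not share their dip. The complexin genes Cplx1 and Cplx2 differed by 0.037 (adjusted p = 0.893) and -0.21 (adjusted p = 0.547) at 750 ppm against control in limma. The SNARE and calcium-sensor genes Snap25, Vamp2, Stx1a and Syt1 lay between -0.040 and 0.10. Ccn3, another CCN family gene and the only other one past the filter, had 10.48, 10.35 and 9.71 at 750 ppm against 9.45, 9.72 and 9.42 in controls, a difference of 0.65 (adjusted p = 0.300). Of 7 YAP and TEAD pathway genes, which include targets of the factors that bind GGAATG, 5 were higher at 750 ppm, with a median of 0.24 and 0 past the adjusted threshold. Ajuba, which encodes a LIM-domain inhibitor of the Hippo kinases, stood highest of them at 0.44 (adjusted p = 0.252).

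Relatives of the other genes also stayed short of the threshold. Nxph3, a neurexophilin of deep cortical layers, was at 9.96, 9.88 and 9.94 at 750 ppm and at 10.32, 10.02 and 9.96 at 2500 ppm, against 10.41, 10.40 and 10.37 in controls. It lay below the controls on all 6 exposed arrays, an order found in 6.58% of all probe sets at 750 ppm and in 13.4% at 2500 ppm, with differences of -0.47 at 750 ppm (adjusted p = 0.201) and -0.29 at 2500 ppm (adjusted p = 0.158). The activity-induced nuclear receptor gene Nr4a1 differed by -0.29 at 750 ppm (adjusted p = 0.230), and Nr4a3 by 0.52 at 2500 ppm (adjusted p = 0.288). Enpp2, which encodes autotaxin, the enzyme that makes lysophosphatidic acid, was 0.82 higher at 2500 ppm (adjusted p = 0.173). The mean of 5 choroid plexus genes, from a tissue that also expresses Enpp2, was 8.03 to 9.50 at 2500 ppm against 6.67 to 6.82 in controls. Of the 5, 4 were higher and Kcnj13 differed by -0.014. Folr1 passed the filter only through the 2500 ppm group. Sostdc1, with a control mean of 6.07, passed it only through the exposed groups. The part of this tissue in the Enpp2 values was not tested. The receptor gene Lpar6 was 0.44 higher at 750 ppm (adjusted p = 0.417).

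Layer 6 genes, from the layer next to the subplate, did not pass at 750 ppm either. Of 8 past the filter, 7 were lower than control, with a median of -0.10, and 0 passed the adjusted threshold. Over all 11606 genes tested, 4996 were lower at 750 ppm, with a median of 0.018, and 1 passed. At 2500 ppm 1 of the 8 layer 6 genes passed, Syt6, a synaptotagmin gene, which fell by 1.01 (SE 0.13, adjusted p = 0.0185, limma). In that comparison 0.405% of all probe sets were called lower. Of the 7 layer 5 and 6 upper layer genes past the filter, 6 and 6 were lower at 750 ppm than in controls, with medians of -0.17 and -0.13 and 0 calls. A small negative median at 750 ppm was thus found for each of these layer lists. Across them 2 genes were lower at 750 ppm at an unadjusted p under 0.05 in limma, beside 312 of all 11606 genes tested. These 2 were Syt6, with a difference of -0.52 (adjusted p = 0.218), and Rorb, a nuclear receptor gene of layer 4 neurons, with -0.70 (adjusted p = 0.256).

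The genes most like Cplx3 and Ccn2 over the 9 arrays came from unrelated families. Pearson's r was computed with the brighter probe set of each gene for 16141 probe sets with 1 symbol, and the 6 highest genes were taken as a description, since all points share their arrays and the same group structure. For Cplx3 these were Sapcd2 (r = 0.98), the carnitine transporter gene Slc22a5 (0.94), Zfp488, a zinc finger gene of oligodendrocytes (0.93), C1ql1, which encodes a secreted synaptic protein (0.93), the histamine receptor gene Hrh3 (0.93) and Skida1 (0.93). Their differences at 750 ppm against control ran between -0.47 for Zfp488 and -0.24 for C1ql1 and Skida1, all smaller than the -0.90 of Cplx3. For Ccn2 they were the clock transcription factor gene Npas2 (0.96), Slc16a6, Pigy, the cytoskeletal linker gene Dst and the synaptic scaffold gene Homer1 (0.91 to 0.92), and Myrip (0.91). Npas2 differed by -0.34 at 750 ppm against control and by 0.79 at 2500 ppm against 750 ppm, more than Ccn2 itself on both counts. Each gene stands here by its probe set with the highest r. Hrh3, Slc16a6, Pigy, Dst, Homer1 and Myrip have 1, 1, 1, 4, 4 and 2 other probe sets, for which r is not given.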

How the data were processed

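For each of the 9 arrays the deposited table gives a log2 intensity per probe set, summarised by RMA. Per the submitters' processing notes they were made with the affy package and RMA, with no versions named. Quantile normalization within RMA hides any overall shift in RNA content. The number of arrays limits the precision, and p-values rest on variation from litter to litter.

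The 57 AFFX control probe sets and the 30% of the others with the lowest mean over all arrays (mean under 6.35) were left out, which left 21729. Group means were estimated from the 9 arrays together with limma 3.58.1 (R 4.3.3, statmod 1.5.0), with empirical Bayes variances, two-sided tests and Benjamini-Hochberg adjustment per comparison over all probe sets (threshold 0.05). An exact permutation test of 3 against 3 cannot go below 0.1. Symbols came from the platform annotation, updated through Entrez identifiers (20826 probe sets with 1 symbol, 436 with several, 9780 with none). List genes used the probe set with the highest mean, and the named ones had the smallest p of their list or are relatives and partners of the 6 genes. Promoter sequences were found for 4 of the 6 genes. The members, the 22 gene lists and the alternatives were chosen with earlier results of these data known. Alternatives covered the filter, scaling, variance model, array weights, groups fitted, a replicate block and left-out arrays. Replicate numbers are not said to pair the pups.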

Additional observations from a re-analysis of the deposited data

Results flagged for a closer look

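Ccn2 on probe set 1367631 lay below every control in all 3 arrays at 750 ppm and above every control in all 3 arrays at 2500 ppm, with differences from control of -0.29 and 0.28. Cplx3 on probe set 1384779 did the same, with -0.90 at 750 ppm and 0.13 at 2500 ppm, the second by a gap of 0.0019 between the nearest arrays. Both comparisons share the control arrays, and the difference between the doses was not tested, since these values chose the genes. Arrays in this order, low at 750 ppm and high at 2500 ppm, were found in 0.221% of all probe sets past the filter.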

How the results depend on the processing

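The 0 calls among the 6 probe sets of Nr4a2, Nxph4, Lpar1 and Moxd1, and among 13 other subplate genes, were kept in 52 of 54 and 52 of 57 recomputed counts. Leaving out 1 array at a time gave 0 to 1 calls for each in the comparison of 2500 ppm with 750 ppm (Moxd1 and Inpp4b without 750 ppm replicate 3, Inpp4b without 2500 ppm replicate 3), 0 in both comparisons with control, and 0 to 1 probe sets with the per-array pattern (Nxph4). Leaving out control replicate 3 and 750 ppm replicate 3 together gave 1 call (Moxd1), 2 calls (Inpp4b and Svil) and 1 pattern (Nxph4). Array weights gave 1 call in each of 2 comparisons, Abca8a at 2500 ppm against control and Inpp4b at 2500 ppm against 750 ppm. The closest Lpar1 came was an adjusted p of 0.0524 at 2500 ppm without control replicate 1. Of 324 recomputed differences of single probe sets, 1 moved by more than the spread between replicates, and 23 changed sign, none of them a called value. These include Nr4a2 at 750 ppm against control without 750 ppm replicate 3 (0.050 and 0.0056) and, on probe set 1369007, at 2500 ppm against control without 2500 ppm replicate 3 (0.030).

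Calls over all probe sets moved more. They numbered 2, 149 and 70 at 750 ppm against control, 2500 ppm against control and 2500 ppm against 750 ppm. They were 340, 1495 and 721 with array weights, 1, 481 and 14 with only the groups compared, and 71, 263 and 1149 without both arrays named above. Leaving out 1 array gave 0 to 48, 9 to 466 and 13 to 731. The cause was not tested. With a replicate block they were 2, 122 and 36, with no call among the 6 probe sets of Nr4a2, Nxph4, Lpar1 and Moxd1. Correlations between same-numbered arrays, after subtracting group means, ran from -0.21 to 0.31. With 3 arrays per group these cannot decide whether the numbers pair the pups, which the labels do not say.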

Other observations

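All 6 upper layer genes past the filter had higher means at 2500 ppm than at 750 ppm, with a median of 0.31 beside -0.0073 over all genes tested. By limma 0 passed the adjusted threshold, and 4 were higher at an unadjusted p under 0.05, beside 589 of all 11606 genes tested. Emx1, a homeobox gene of cortical progenitors and excitatory neurons, rose by 0.76 in the same comparison (adjusted p = 0.0306). Sox10, a transcription factor gene of the oligodendrocyte lineage, had 7.94, 7.73 and 7.92 at 750 ppm against 8.34, 8.15 and 8.41 in controls and 8.39, 8.05 and 8.35 at 2500 ppm. Among the list genes past the filter on the 22 lists, it alone had the per-array pattern of Cplx3, which 171 of all 11606 genes tested had, and its difference at 750 ppm against control was -0.43 (adjusted p = 0.228).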
